A study of Mus musculus with 8 samples.

Results

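Of the 18603 promoter windows in the deposited H3K27me3 tables, 295 carry a mouse zinc finger symbol of the form Zfp followed by a number. The symbols were taken by that name alone. The 9 symbols that begin with Zfp36 were left out, also by name alone and whatever the family of their genes. All 295 symbols were also among the 22410 genes of the RNA tables. Each window is 6 kb long, and its H3K27me3 signal is the deposited area of read coverage per M reads over that window. RNA is the deposited mean, over a gene's exons, of the highest coverage per M reads, a height and not a read total. The cells were naive CD4+ T cells from lymph nodes of mice of the 129SV/B6 background, a resting T cell population that has not met antigen. The labels name 4 genotypes: WT, Ezh1 -/- (Ezh1 KO), Ezh2 fl/fl CD4-cre (Ezh2 KO) and Ezh1 -/- Ezh2 fl/fl CD4-cre (double KO). The Ezh1 allele is lost in every cell of those mice, whereas Ezh2 is deleted by a recombinase driven by Cd4 sequences, from the thymic stage on. There was 1 library per genotype and assay, so differences between genotypes have no replicate check, and no p-value was computed. The labels give neither age nor the number of animals behind a library. Where 4 values follow each other WT comes first, then the Ezh1, Ezh2 and double mutants.

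Zfp is the mouse name for a large and mixed set of proteins, most of which bind DNA or RNA through C2H2 zinc fingers. Many also carry a KRAB box, a short domain that recruits TRIM28 and the H3K9 methyltransferase SETDB1, and these genes arose by tandem duplication and lie in clusters, where many of them silence retroelements. The others include conserved regulators of development, RNA-binding proteins and ribosome factors, mostly at single loci. H3K27me3 is written by Polycomb repressive complex 2, whose catalytic subunit is EZH2 or EZH1, and marks promoters of silent genes that often have many CG dinucleotides.

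The promoters shown here are those of the genes on which the comparisons turn: 3 from a chromosome 11 cluster that was high in H3K27me3 (Zfp454, Zfp354b, Zfp354a), 2 from a chromosome 13 cluster that was low in H3K27me3 and expressed (Zfp429, Zfp595), and 3 marked or moderately high promoters of other kinds (Zfp503 and Zfp536, isolated developmental genes, and Zfp105). Each is the 250 bases before the annotated start site, written 5′ to 3′ on the gene's strand, read from the mm9 genome. Capitals mark a match on either strand to ACTACANNTCCCA, where N is any base. Of all words with 6 letters, 2 free bases and 5 letters, this is the one that most of these 8 promoters hold, 5 of them, and no other word of that form is in more than 4.
Zfp454: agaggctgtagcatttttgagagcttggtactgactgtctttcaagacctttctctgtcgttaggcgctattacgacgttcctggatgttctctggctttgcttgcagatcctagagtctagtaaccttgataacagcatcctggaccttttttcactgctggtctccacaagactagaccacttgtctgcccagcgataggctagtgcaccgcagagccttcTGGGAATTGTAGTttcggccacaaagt
Zfp354b: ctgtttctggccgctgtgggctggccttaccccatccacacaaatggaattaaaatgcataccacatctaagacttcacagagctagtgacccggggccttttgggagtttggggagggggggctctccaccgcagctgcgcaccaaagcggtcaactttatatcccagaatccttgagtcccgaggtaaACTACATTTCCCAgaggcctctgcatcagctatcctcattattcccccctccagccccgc
Zfp354a: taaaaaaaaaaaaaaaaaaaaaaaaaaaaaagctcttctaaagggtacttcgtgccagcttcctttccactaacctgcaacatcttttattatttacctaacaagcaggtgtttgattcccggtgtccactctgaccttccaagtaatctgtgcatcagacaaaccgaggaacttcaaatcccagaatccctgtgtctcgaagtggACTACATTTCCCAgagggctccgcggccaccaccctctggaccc
Zfp429: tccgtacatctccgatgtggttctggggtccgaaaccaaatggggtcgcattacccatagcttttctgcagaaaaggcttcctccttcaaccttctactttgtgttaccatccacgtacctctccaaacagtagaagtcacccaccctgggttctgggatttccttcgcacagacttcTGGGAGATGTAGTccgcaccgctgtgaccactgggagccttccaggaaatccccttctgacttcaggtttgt
Zfp595: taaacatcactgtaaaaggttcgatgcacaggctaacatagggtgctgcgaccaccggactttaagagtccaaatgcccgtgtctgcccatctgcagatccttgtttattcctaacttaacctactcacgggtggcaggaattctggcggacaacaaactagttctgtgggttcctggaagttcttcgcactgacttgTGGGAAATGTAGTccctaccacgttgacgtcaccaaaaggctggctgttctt
Zfp503: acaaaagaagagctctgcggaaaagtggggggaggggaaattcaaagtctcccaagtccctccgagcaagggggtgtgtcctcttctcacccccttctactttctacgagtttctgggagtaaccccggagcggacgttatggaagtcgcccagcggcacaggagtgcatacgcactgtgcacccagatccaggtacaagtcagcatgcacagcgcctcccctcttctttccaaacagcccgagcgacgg
Zfp536: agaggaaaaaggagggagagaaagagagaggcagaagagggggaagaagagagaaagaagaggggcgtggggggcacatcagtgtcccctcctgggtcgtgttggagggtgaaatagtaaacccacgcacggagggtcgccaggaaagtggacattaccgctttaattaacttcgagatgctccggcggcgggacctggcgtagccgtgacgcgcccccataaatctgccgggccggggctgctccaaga
Zfp105: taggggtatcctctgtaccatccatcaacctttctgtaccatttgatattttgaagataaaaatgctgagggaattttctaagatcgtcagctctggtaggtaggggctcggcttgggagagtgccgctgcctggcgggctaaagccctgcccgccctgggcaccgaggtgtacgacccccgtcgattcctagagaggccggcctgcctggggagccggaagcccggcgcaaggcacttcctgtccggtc

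In mm9 these lie at chr11:50701154-50701403 on the minus strand for Zfp454, chr11:50745136-50745385 on the minus strand for Zfp354b and chr11:50872509-50872758 on the plus strand for Zfp354a. The chromosome 13 pair lies at chr13:67500704-67500953 for Zfp429 and chr13:67433497-67433746 for Zfp595, both on the minus strand. Zfp503 lies at chr14:22808824-22809073 and Zfp536 at chr7:38554772-38555021, both on the minus strand, and Zfp105 at chr9:122831940-122832189 on the plus strand. All 8 stretches lie upstream of the annotated start of their own gene. The motif lies close to the start in the 5 promoters that hold it: it begins 27 bases before the start in Zfp454, 60 in Zfp354b, 44 in Zfp354a, 72 in Zfp429 and 52 in Zfp595. It is written on the gene's own strand in Zfp354a and Zfp354b and on the opposite strand in the other 3. Zfp503, Zfp536 and Zfp105 have no match in the 250 bases read, and the rest of their windows was not searched. The letters resemble the site known for ZNF143, whose mouse gene Zfp143 is itself among the members, with RNA of 2.93, 2.75, 2.71 and 2.60.

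The form of the word was picked after these 8 promoters had been read, and its frequency is a description. Of the 223 Zfp windows centred exactly on an annotated start of their own gene, 29 hold a match in the 250 bases before it (13%). The share was 323 of the 14119 windows of all genes read the same way (2.29%). By position, 25 of 99 clustered Zfp promoters hold it (25.3%) and 2 of 77 isolated ones (2.60%). Without the printed promoters, 20 of 93 clustered promoters still hold it (21.5%). The matches are uneven over clusters: all 6 promoters of the chromosome 11 cluster and 7 of the 9 read in the chromosome 13 cluster have one, and 7 of 22 clusters have any. Outside those 2 clusters the share is 12 of 84 clustered promoters (14.3%). Duplicated promoters share ancestry, so promoters of 1 cluster are not independent. At 2 or more times background in WT were 6 of 29 promoters with it (20.7%) and 40 of 191 with signal but without it (20.9%), and at 4 or more times 3 and 10. Median WT RNA was 0.207 with it and 0.477 without, and RNA was under 0.1 for 34.5% and 22.0%. The promoters with it include all 6 of the chromosome 11 cluster, with median WT RNA of 0.0228 and median WT H3K27me3 of 27.3. That cluster was printed because it was high in H3K27me3, so the levels beside the word are not independent of how the word was picked.

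CG dinucleotides, the other sequence feature examined, set the classes apart too. The 8 printed promoters have 7 (Zfp454), 7 (Zfp354b), 6 (Zfp354a), 8 (Zfp429), 9 (Zfp595), 13 (Zfp503), 16 (Zfp536) and 14 (Zfp105). The median was 8 over clustered and 13 over isolated promoters, beside 11 over all genes, and 54.5% of all promoters hold 10 or more. The 107 promoters of KRAB-type genes had a median of 8 and the 116 of other Zfp genes 13.5.

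From the height of 1 read, the H3K27me3 libraries hold 78.2 to 88.2 M reads and the RNA libraries 36.1, 70.4, 40.7 and 94.1 M reads. The RNA of Ezh1 was 1.05, 0.196, 1.12 and 0.194, low in both libraries labelled as lacking it. Ezh2 RNA was 0.925, 0.913, 1.08 and 1.17 as a mean over 21 exons, which does not check a deletion of a few of them, and the tables give no value per exon. The window of Cd4, the gene whose control sequences drive the Cre, read 19.9 and 24.1 without Cre and 193 and 212 in the Ezh2 KO and double KO. All 9 naive CD4 T cell markers were read in every RNA library, with a summed level of 128, 113, 111 and 117. Markers of other cells were lower in sum but not equal: 7 B cell markers summed to 2.09, 2.57, 5.34 and 6.40, 7 CD8 T and NK cell markers to 2.74, 3.14, 7.68 and 6.10, 6 myeloid markers to 0.413, 0.707, 0.792 and 1.41, and 3 cycling markers to 6.29, 8.15, 11.1 and 8.56. Some of these sums rested on few genes. Over the 4 libraries Lyz2 (myeloid) read 0.275, 0.561, 0.576 and 1.19, and Igj (B cell) 0.260, 0.423, 1.79 and 0.419. Gzma read 0.226, 0.270, 2.90 and 1.13, whereas Cd8a stayed between 0.133 and 0.242. Klrb1c was highest in Ezh2 KO (1.03) and lowest in double KO (0.0498). With 0.1 added, 5 B cell, 4 CD8 T or NK, 1 myeloid and all 3 cycling markers were 1.5-fold over WT in Ezh2 KO. In double KO the counts were 6, 3, 1 and 1. Of all genes at 1 or more, 3.39% were that much higher in Ezh2 KO and 2.65% in double KO. No marker stood at 0 in any library except 1 myeloid marker in WT. The libraries are bulk, so fewer cells of a type and less RNA per cell cannot be told apart.

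Of the Zfp windows 6 were listed at 0 in all 4 libraries: Zfp740 and Zfp385a on chromosome 15, Zfp236, Zfp516 and Zfp407 on chromosome 18, and Zfp295 on chromosome 16. Each lies beyond the last window with any signal on its chromosome, as do 409 of all 528 windows listed at 0, on 7 chromosomes. They are not read as lacking the mark, and 289 Zfp windows remain. Reads placed at more than 1 site were discarded, which bears on duplicated genes. Of 50-base starts in the window, the median share that is unique in the genome was 96.7% over clustered and 98.4% over isolated windows, and 13 Zfp windows fell under 80% (4.41%, against 5.87% of all windows). The extreme is Zfp97, a KRAB gene with 1.0% unique starts, which read 0 in WT and 0.0693, 0.0772 and 0.0685 in the mutants despite RNA of 1.73 in WT.

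In WT cells most Zfp promoters were near background. The median Zfp window read 12.8 in WT, 13 in Ezh1 KO, 12.9 in Ezh2 KO and 12.7 in double KO, beside 13.9, 14.6, 13.9 and 14 over all windows with signal. Background is the median window of the most expressed tertile of genes, 10.1 in WT. Marked windows, set at 4 or more times it (40.6), made up 12.3% of all windows, and 17 of 289 Zfp windows reached that level (5.88%, exact Clopper-Pearson 95% interval 3.46 to 9.25%). At 2 or more times background the shares were 32% of all windows and 20.1% of Zfp windows, 58 in number. The related Zbtb genes, with a BTB domain beside the fingers, had 3 of 37 marked, and the Zscan and Zkscan genes, with a SCAN domain, 2 of 21. Their WT medians were both 11.

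The 17 marked windows belong to genes with little or no RNA. The highest was Zfp697, at 73.8, 78.8, 65.0 and 78.2. Zfp105, a neighbour of Zfp445 studied in male germ cells, read 71.9, 71.1, 70.4 and 72.2. Zfp580 read 63.6, 79.9, 73.6 and 79.9. These 3 windows differed over the libraries: Zfp105 stayed within 2 units over the 4 libraries, while Zfp580 was higher in every mutant. Zfp9 (60.6 in WT), Zfp57 (60.4), Zfp641 (58.9), Zfp663 (54.9), Zfp454 (53.7), Zfp334 (48.9) and Zfp521 (48.1) complete the highest 10. The others were Zfp37, Zfp503, Zfp532, Zfp811, Zfp800, Zfp354b and Zfp462. Just inside the limit stood Zfp462 at 40.8, and just outside it Zfp704 at 39.7 and Zfp608 at 38.9. WT RNA was under 0.1 for 16 of the 17. The exception was Zfp800, a factor with a known role in the pancreas, whose window read 45.3, 49.2, 46.4 and 42.8 while its RNA read 1.36, 1.24, 1.42 and 1.29. An annotated transcript of another gene overlaps its exons, so its reads cannot be assigned to it alone. Across the 289 windows Spearman's rho between WT H3K27me3 and WT RNA was -0.39, and -0.52 over 17970 windows of all genes, both as descriptions over genes of 1 library each.

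**Figure D1:**
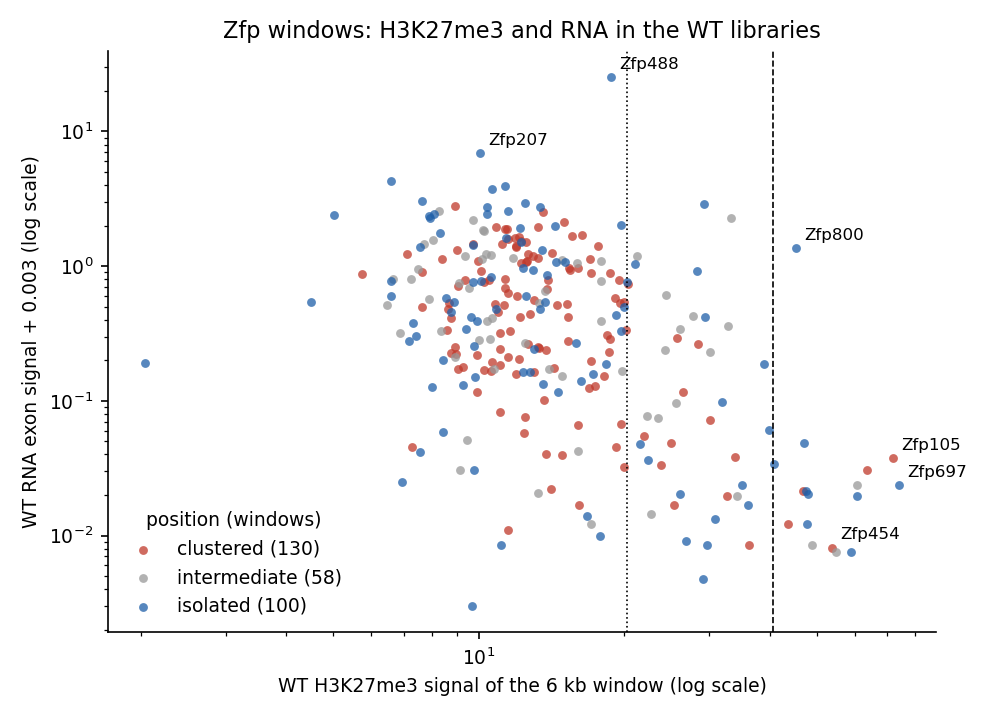
H3K27me3 signal of each Zfp window (x axis, log scale) against the RNA exon signal of the same gene plus 0.003 (y axis, log scale) in the WT libraries, 1 point a gene, coloured by position. The dotted line is 2 times and the dashed line 4 times background (40.6); right of the dashed line only Zfp800 has RNA above 0.1. Zfp97, which read 0 in WT, is not drawn.

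Clustered and isolated Zfp genes were separated by the deposited coordinates alone. Runs of 3 or more Zfp windows at most 250 kb apart made 22 clusters on 10 chromosomes, with 130 windows, 59 of them on chromosome 7. Windows with no other Zfp window within 1 Mb were isolated, 105 in number, and 60 were intermediate. The proteins of the classes differ: 100 of 129 clustered proteins had a KRAB-type box in their translated sequence (77.5%), against 16 of 103 isolated ones (15.5%), and the median number of C2H2 fingers was 12 and 7. The medians of H3K27me3 were nearly equal in the 2 classes. Clustered windows read 12.9, 13.3, 13.4 and 12.8 and isolated windows 12.6, 12.7, 12.3 and 12.5. The spread was not: in WT the quartiles of clustered windows ran from 11 to 17.1 and those of isolated windows from 9.42 to 20.2. Marked windows were 5 of 130 clustered (3.85%, interval 1.26 to 8.75%) and 9 of 101 isolated (8.91%, interval 4.16 to 16.2%), intervals that overlap and cover counting error only. At 2 times background they were 17 clustered (13.1%) and 25 isolated (24.8%). Median WT RNA was 0.416 and 0.431.

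By protein type the picture was alike. Of the 143 genes with a KRAB-type box 7 were marked (4.90%), and of 143 without one and with signal 10 (6.99%). Their WT medians were 13.3 and 12.2, and their median RNA 0.328 and 0.480. Isolated genes without a box held 8 of the 17 marked windows.

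Of the 22 cluster medians, 21 lay between 10.1 and 18.7 in WT and under 2 times background. The exception was the cluster on chromosome 11, with 6 genes over 238 kb, at 27.3, 32.4, 22.6 and 26.6. Its peak was Zfp454, a KRAB gene at 53.7, 62.3, 47.8 and 47.3, followed by Zfp354b at 43.6, 51.2, 35.7 and 33.5. Zfp354a read 32.6, 38.3, 24.4 and 30.5, and Zfp2 and Zfp879 read 22 and 20.0 in WT. In these 5 the Ezh1 KO library was the highest of the 4. So it was in the median of all windows at 2 or more times background in WT, 34.9, 41.9, 30.9 and 35.9. The sixth, Zfp354c, stood near background at 10.6, 12.1, 10.9 and 12.1, and was also the gene of the cluster with the most RNA, 0.191, 0.134, 0.122 and 0.118. RNA of the other 5 was between 0.00512 and 0.0515 in WT. Across all clusters 4 held a marked window, and beyond chromosome 11 they were those of Zfp580 on chromosome 7, Zfp811 on chromosome 17 and Zfp105 on chromosome 9, each with 1.

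The largest cluster, on chromosome 13 from Zfp708 to Zfp273, holds 17 genes over 722 kb, 16 of them with a KRAB-type box. None was marked: windows ran from 7.12 (Zfp738) to 20.1 (Zfp455), and the median was 13.2, 12.9, 14.1 and 13. Its genes were expressed at low levels, with a median RNA of 0.676, 0.562, 0.525 and 0.530. The highest were Zfp748 at 1.69, 1.83, 1.44 and 1.72 and Zfp87, whose exons overlap those of Zfp58, at 1.5, 1.53, 1.34 and 1.47. The 2 clusters share their gene type and the word in capitals above, and differ in both readouts. The 12 clusters of 5 or more windows include 2 on chromosome 17, peaking at Zfp54 (median 14.8) and Zfp811 (17.4), 1 on chromosome 6 at Zfp786 (12.1), and 1 on chromosome 9 at Zfp872 (12.6). The other 6 lie on chromosome 7 and peak at Zfp580 (median 11.1), Zfp28 (10.1), Zfp128 (13.3), Zfp428 (15.2), Zfp30 (11) and Zfp629 (11.5).

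**Figure D2:**
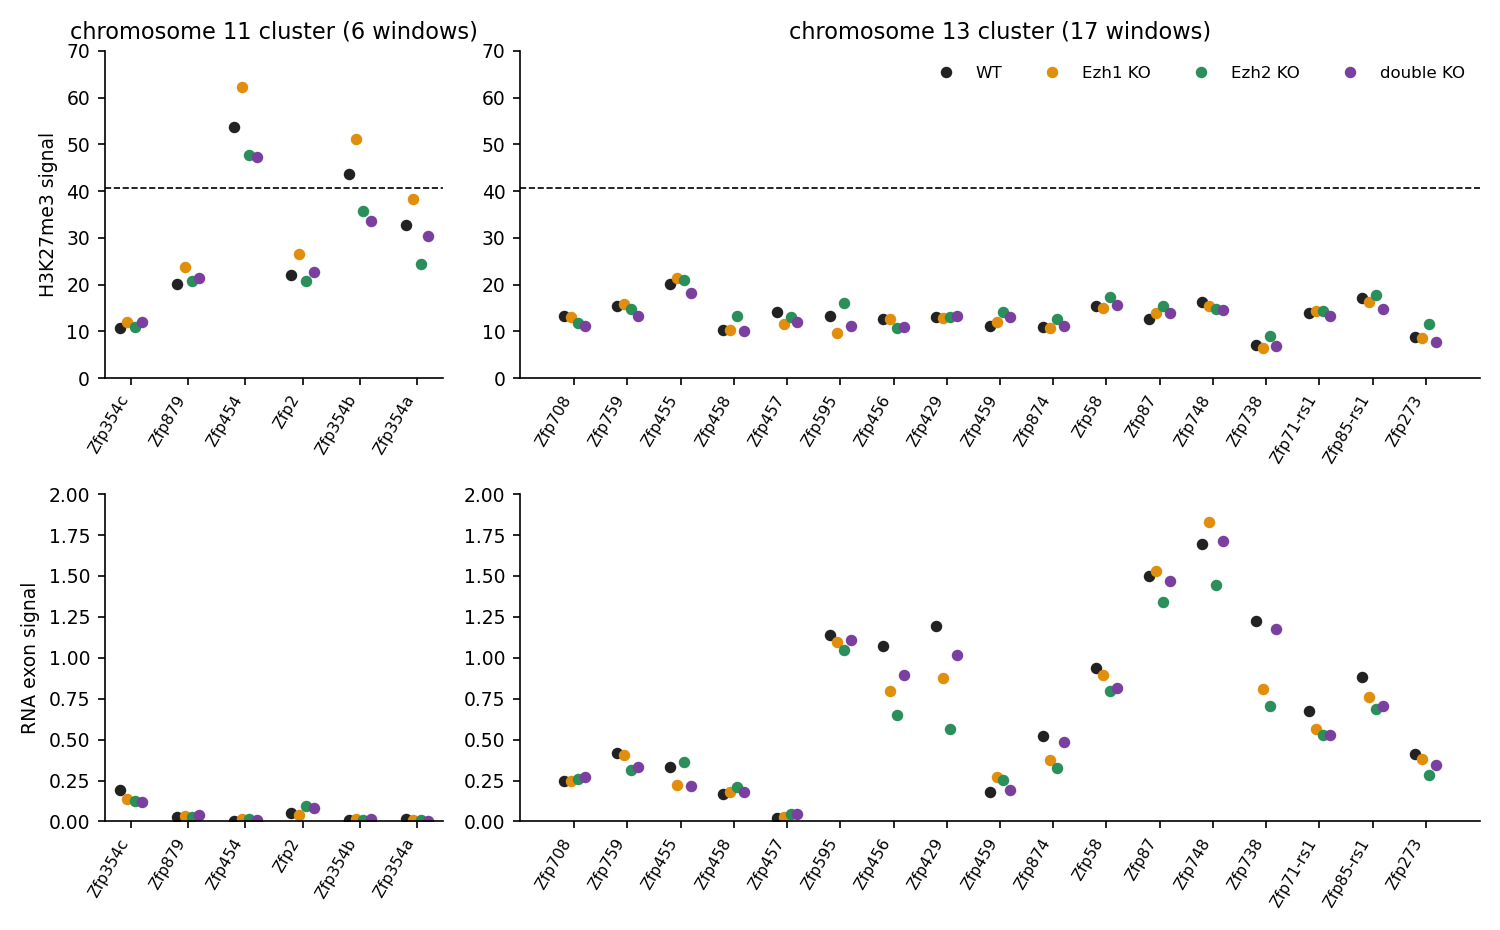
H3K27me3 signal (top) and RNA exon signal (bottom) of every gene of the chromosome 11 cluster (left) and the chromosome 13 cluster (right), in genomic order, 1 point per library. The dashed line is 4 times background (40.6); Zfp454 and Zfp354b of the left cluster reach it in WT, and no gene of the right cluster does, where RNA reaches 1.69 in WT (Zfp748).

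Among genes that silence imprinted loci and retroelements, 6 of the 7 listed were measured. Zfp57, which keeps methylation at imprinted loci, was marked at 60.4, 62.6, 48.6 and 59.1, with RNA under 0.02 in all 4 libraries. Zfp819, a testis gene that represses retroelements, read 36.2, 39.1, 29.7 and 36.2 and had RNA under 0.02. The other 4 were unmarked and expressed. Zfp445, another factor known to act at imprints, read 17.6, 15.9, 18.6 and 18.2, with RNA of 1.42, 1.58, 1.49 and 1.62. Zfp809, which silences retroviruses, read 9.08, 9.33, 8.83 and 8.75, with RNA of 0.704, 0.686, 0.618 and 0.763. Zfp568 and Zfp708 read 11 and 13.2 in WT. The 2 windows of this list with the most H3K27me3 were those of the 2 genes with the least RNA.

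Developmental regulators were the role list with the highest WT median, 26.4 over the 14 of 16 listed and present genes whose windows had signal, and 8 of the 14 were at 2 times background. Zfp423, a partner of EBF1 in fat and cerebellar cells, read 35.1, 53.2, 33.1 and 47.7. Zfp536, expressed in neurons, read 30.8, 47.4, 27.5 and 45.8. Zfp503, known from the striatum and limb, read 47.5, 66.4, 45.6 and 59.9. In all 3 the 2 libraries without Ezh1 were the highest and the other 2 were close to each other. Zfp521, a blood and neural progenitor factor, read 48.1, 54.1, 49.1 and 54.5, and Zfp804a read 36.0, 37.2, 32.1 and 39.6. Low in this list were Zfp710 at 6.45, Zfp750, an epidermal factor, at 8.44, and Zfp467 at 10.8 in WT. RNA was under 0.1 in WT for 10 of the 16. In WT 2 were at 1 or more, Zfp488 and Zfp238, a cortical repressor at 1.92, 1.07, 1.52 and 1.83.

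The lists for pluripotency, lymphocytes and RNA processing were lower in mark and higher in RNA. Of 7 pluripotency genes 1 was marked, Zfp462, and the median was 12.5. Zfp42, the embryonic stem cell marker Rex1, read 9.67 with RNA at 0 in WT. Of 10 lymphocyte genes none was marked, and the median was 9.61. Zfp608, which acts in thymocytes, was the highest of these at 38.9. The 7 genes of RNA and ribosome roles had the narrowest range, a median of 10.8 and none at 2 times background. They include Zfp207, a spindle and splicing factor with the second highest RNA of all members (6.91, 6.30, 7.12 and 6.49, on exons that another annotated gene overlaps), and Zfp622, a ribosome maturation factor (4.31, 3.92, 4.58 and 3.81). The 10 members highest in WT RNA were Zfp488, Zfp207, Zfp622, Zfp281, Zfp518, Zfp292, Zfp143, Zfp277, Zfp260 and Zfp830.

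Loss of Ezh1, Ezh2 or both was compared with WT at each window by a log2 ratio with 1 added to both values. The signal is per M reads of each library, and the other scalings used are relative too. A change of the mark by the same factor at all sites would therefore not show in these ratios. On this relative scale few Zfp windows differed by 2-fold, and few windows of any gene did. In Ezh1 KO no member was 2-fold higher, beside 0.0111% of all 17972 windows tested, or 2-fold lower, beside 0.0223%. In Ezh2 KO no member was 2-fold higher or lower, beside 0.0167% of all windows in each direction. In the double KO 1 of 288 members was 2-fold lower, beside 0.139% of all windows, and none was higher, beside 0.0334%. The median log2 ratio over members was 0.01, 0.02 and -0.00 in the 3 mutants in that order, and 0.09, -0.01 and 0.05 over all windows. Under TMM and median of ratios scaling the Ezh1 KO median over members turned to -0.08 and -0.09, and with background windows set equal that of Ezh2 KO turned to -0.10. That of the double KO stayed under 0. The single window was Zfp608, on chromosome 18, at 38.9 in WT, 45.3 in Ezh1 KO, 39.9 in Ezh2 KO and 17.6 in double KO. Its log2 ratio to WT was -1.10 (counting interval -1.37 to -0.92). With a pseudocount of 10, or with the highest bin in place of the area, 0 members were 2-fold lower than WT. The low value was confined, among the 4 libraries, to the double KO, which was also 2-fold under Ezh1 KO (log2 -1.32; 0.206% of all windows were that much lower) and under Ezh2 KO (-1.14; 0.0167%). Its RNA was 0.184, 0.145, 0.254 and 0.416, the highest in the double KO.

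At 1.5-fold more windows entered. In Ezh1 KO 2 members were higher, beside 1.93% of all windows, and none lower, beside 0.256%: Zfp536 (log2 0.61, counting interval 0.44 to 0.80) and Zfp423 (0.59, interval 0.43 to 0.77). Both are isolated developmental genes with no KRAB-type box, and in the double KO their log2 ratios were 0.56 and 0.43. In Ezh2 KO 2 were higher, beside 0.606%, and 2 lower, beside 0.795%. The lower ones were Zfp316, at 25.6, 27.2, 14.4 and 15.4, and Zfp296, a stem cell gene, at 21.6, 21.2, 13.9 and 11.3. Both stood low in the 2 libraries labelled as lacking Ezh2 and near WT in Ezh1 KO. The higher ones were Zfp169, from 6.6 to 12, whose window lies 6497 bases from its annotated start and holds that of another gene, and Zfp91, from 5.01 to 8.07. In the double KO 4 were lower, beside 1.48%, and 1 higher, Zfp169, beside 1.14%. The 4 were Zfp608, Zfp296, Zfp316 and Zfp821, the last at 30.1, 29, 25 and 19.4. In each of these comparisons the members' share past 1.5-fold lay near or under that of all windows.

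The double KO was also set beside each single mutant, comparisons that share their libraries with those above. No member was 2-fold higher than in Ezh1 KO (0.0167% of all windows). At 1.5-fold none was higher (0.373%) and 5 were lower (2.18%): Zfp608, Zfp296, Zfp316, Zfp90 and Zfp354b, the last at 51.2 in Ezh1 KO and 33.5 in double KO. Zfp90 read 15.9, 16.9, 11.8 and 10.3. Against Ezh2 KO none was 2-fold higher (0.0167%), 1 was 1.5-fold higher (0.534%), Zfp536, and 2 were lower (0.289%), Zfp608 and Zfp59. Zfp536 thus stood high in both libraries without Ezh1.

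Over the development list, in Ezh1 KO 13 of its 14 windows were higher than WT, with a median log2 ratio of 0.19, beside 0.09 over all windows. In the double KO 11 of 14 were higher (median 0.22), and in Ezh2 KO 10 of 14 were lower (median -0.09). Under the scalings that set the typical window equal, 11 of 14 were still higher in Ezh1 KO, with medians of 0.09 and 0.10. Marked windows of all genes had medians of 0.29, -0.12 and 0.12 in the order Ezh1 KO, Ezh2 KO and double KO. All windows at 2 or more times background had 0.24, -0.14 and 0.06, with 13.7%, 81.6% and 40.2% of them lower. Of all windows 35.8%, 51.5% and 40.4% were lower. Only 3 of the 14 listed windows were marked, and whether the list differs from windows of a like level was not tested. The 7 pluripotency windows had a median of -0.10, -0.09 and -0.11, with 6, 6 and 5 of them lower, beside 35.8%, 51.5% and 40.4% of all windows. The 10 lymphocyte windows had medians of -0.01, 0.21 and -0.01, and of the 6 imprint and retroelement windows 3, 5 and 5 were lower.

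Windows at 2 or more times background in WT, chosen on that WT value, were split by protein type. The 24 with a KRAB-type box had median log2 ratios of 0.10 in Ezh1 KO, -0.21 in Ezh2 KO and -0.11 in double KO, and the 34 without one 0.19, -0.14 and 0.02. In Ezh2 KO 22 of 24 and 28 of 34 were lower than WT, beside 81.6% of all 5790 windows chosen by the same WT level (median -0.14). In the double KO 21 of 24 KRAB windows were lower, against 16 of 34 of the others and 40.2% of all windows so chosen (median 0.06). Under the 3 other scalings the double KO median of the KRAB windows stayed under 0 (-0.16, -0.16 and -0.14), while that of the others turned to -0.03, -0.03 and -0.02. In Ezh1 KO the KRAB median was 0.00 under TMM scaling, with 12 of 24 windows higher. The KRAB windows hold fewer CG dinucleotides, a median of 9 in 19 read promoters against 13 in 27, whose part in the result was not tested. These windows also had a lower WT median of H3K27me3 than the others and than all windows so chosen. Whether they differ from windows of a like level was not tested. Of the 24 KRAB windows 13 lie in clusters, and windows of the same cluster may not be independent. Over all clustered and all isolated windows the double KO medians were -0.04 and 0.07.

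**Figure D3:**
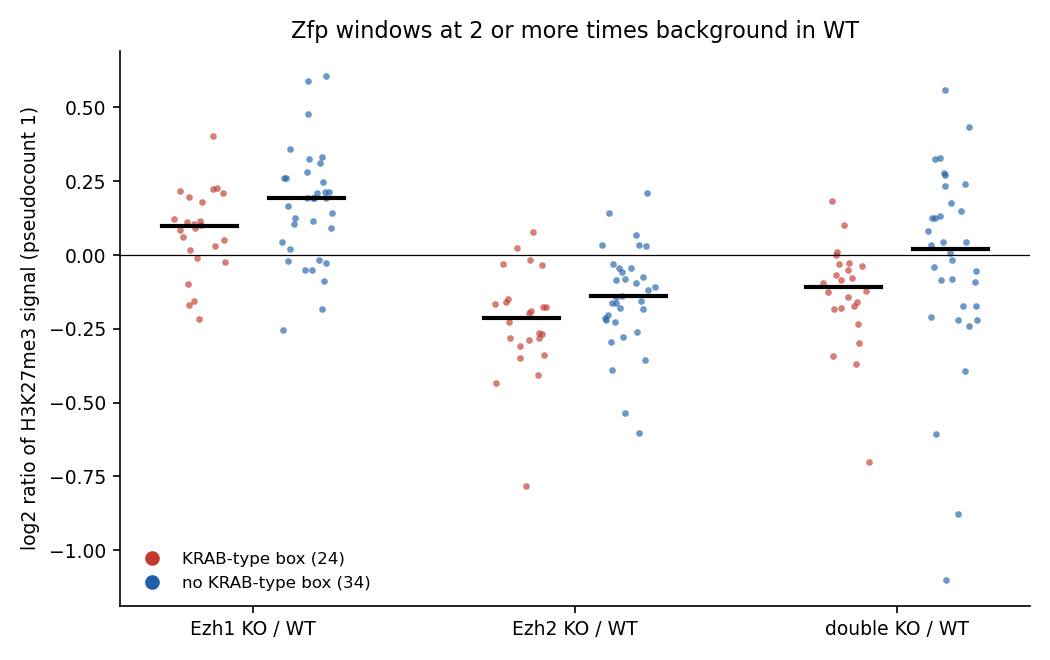
Log2 ratio of H3K27me3 signal to WT (y axis, pseudocount 1) for the 58 Zfp windows at 2 or more times background in WT, by mutant (x axis) and by KRAB-type box (red, 24 windows; blue, 34), 1 point a window, black bars at the medians. In the double KO 21 of 24 red points lie under 0 and 16 of 34 blue ones; the lowest blue point there is Zfp608 at -1.10.

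RNA was compared by a log2 ratio with 0.1 added, over the genes at 1 or more in the higher of the 2 libraries: 78 members in Ezh1 KO, 78 in Ezh2 KO and 80 in double KO. No member was 2-fold higher or lower in any mutant. Of all genes tested 0.154% were 2-fold higher and 0.288% lower in Ezh1 KO, 1.1% and 0.393% in Ezh2 KO, and 1.07% and 0.169% in double KO. The members' median ratio was -0.13, -0.11 and -0.09, beside -0.13, -0.04 and -0.10 over all genes. At 1.5-fold 2 members were higher in Ezh1 KO (0.596% of all genes), Zfp488 and Zfp281, and 3 lower (2.73%), Zfp238, Zfp39 and Zfp120. In Ezh2 KO 1 was higher (3.39%), Zfp488, and 5 lower (2.81%), Zfp429, Zfp120, Zfp738, Zfp456 and Zfp39. In the double KO 1 was higher (2.65%), Zfp318, and none lower (2.33%). The 5 that were lower in Ezh2 KO are all KRAB-type genes, and 3 of them sit in the chromosome 13 cluster. Zfp429 read 1.20, 0.878, 0.564 and 1.02. Zfp738 read 1.23, 0.808, 0.706 and 1.18. Zfp456, whose exons another annotated gene overlaps, read 1.07, 0.796, 0.652 and 0.892. In each the Ezh2 KO library was the lowest and the double KO above it, although both libraries are labelled as lacking Ezh2. Between 74.7% and 79.3% of their exon starts are unique, fewer than the clustered median of 99.4%. Their windows were near background or under it, and that of Zfp429 read 13, 12.9, 13.1 and 13.3. Between double KO and Ezh1 KO no gene was 2-fold higher (0.726% of all genes) or lower (0.157%), and 2 were 1.5-fold higher (2.59%), Zfp238 and Zfp318, with none lower (0.589%). Between double KO and Ezh2 KO none was 2-fold higher (0.345%) or lower (0.441%). At 1.5-fold 4 were higher (1.36%), Zfp429, Zfp738, Zfp575 and Zfp318, and 2 lower (1.72%), Zfp488 and Zfp706.

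Clustered genes as a class were lower in Ezh2 KO RNA. The median log2 ratio was -0.22 over 31 clustered genes, 26 of which were lower, and 0.02 over 31 isolated ones, 15 of which were lower, beside 56.4% of all genes tested; under TMM scaling these were -0.27 and -0.04. In Ezh1 KO the medians were -0.13 and -0.08, and in the double KO -0.06 and -0.09. With the limit at 0.2 the Ezh2 KO medians were -0.19 over 93 clustered genes (71 lower) and 0.01 over 68 isolated ones (33 lower), and 17 of the 21 clusters with any such gene had a median under 0. The count was close to this in the other mutants, 16 in Ezh1 KO and 18 in the double KO, where the clustered medians were -0.11 (59 of 90 lower) and -0.11 (63 of 90 lower). Over all genes at that limit 73.8% were lower in Ezh1 KO, 56.2% in Ezh2 KO and 62.9% in the double KO. Their medians were -0.12, -0.04 and -0.08. Split by protein type at the same limit the Ezh2 KO medians were -0.17 over 99 KRAB-type genes and -0.01 over 102 others. The quartiles of the clustered genes at a limit of 1 were -0.35 and -0.08, and no replicate shows how far 2 libraries of 1 genotype would differ. The Ezh2 KO RNA library also had higher summed levels of cycling markers (11.1 against 6.29 in WT), CD8 T and NK markers (7.68 against 2.74) and B cell markers (5.34 against 2.09), whose part in this result was not tested. Within the last 2 of these sums Gzma alone read 2.90 against 0.226 in WT, and Igj 1.79 against 0.260. The same 3 sums were 8.56, 6.10 and 6.40 in the double KO, and their part in its RNA ratios was not tested either.

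**Figure D4:**
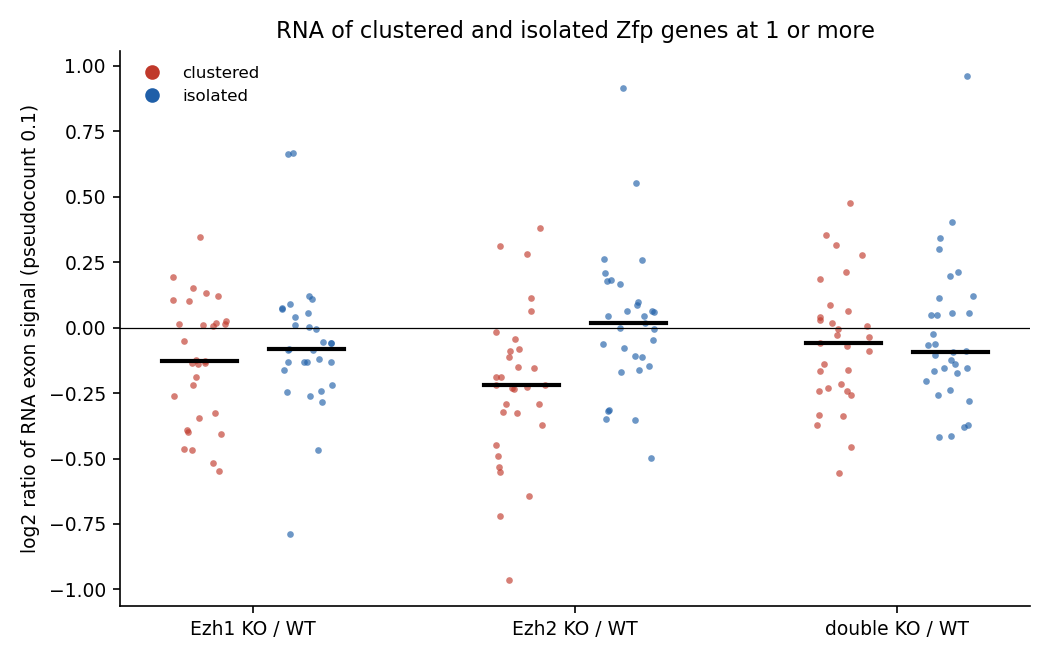
Log2 ratio of RNA exon signal to WT (y axis, pseudocount 0.1) for clustered (red) and isolated (blue) Zfp genes at 1 or more in the higher library, by mutant (x axis), 1 point a gene, black bars at the medians. In Ezh2 KO the red median lies at -0.22 and the blue one at 0.02; in the double KO they lie at -0.06 and -0.09.

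The next 4 genes had patterns of their own. Zfp318, known in B cells for its need in IgD expression, had RNA of 0.765, 0.791, 0.991 and 1.59, a log2 ratio of 0.96 in the double KO, while its window read 20.2, 20.1, 14.3 and 15.7. Its RNA was highest in the library with the most B cell marker RNA (6.40), and whether the 2 go together was not tested. Zfp281, a stem cell repressor, had RNA of 3.93, 6.29, 5.82 and 5.23, lowest in WT, with a window near background (11.4, 9.29, 11.2 and 12.1). Zfp488, an oligodendrocyte gene, had by far the highest member RNA, 25.3, 40.2, 47.8 and 31.1, on 2 exons, and its window read 18.8, 23.8, 17.6 and 20.8. Of its exon starts 80.1% are unique and of its window's 76.9%. Zfp534, a KRAB gene below the limit of 1, read 0.188, 0.485, 0.937 and 0.365 and was named after its values were seen. Only 25.3% of its exon starts are unique, and an annotated gene overlaps its exons, so these reads may not all be its own.

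The machinery through which KRAB proteins act was present in all 4 libraries. All 23 listed co-repressor genes had RNA, and none was 1.5-fold higher or lower in any mutant. Of all genes at 1 or more, 0.596% were that much higher in Ezh1 KO, 3.39% in Ezh2 KO and 2.65% in double KO. The shares lower were 2.73%, 2.81% and 2.33%. With shares this small, 0 of 23 does not set the list apart. Uhrf1 came near the limit in Ezh2 KO, at a log2 ratio of 0.57. Trim28, the protein KRAB boxes bind, had RNA of 4.15, 4.51, 5.05 and 4.11 and a window of 7.58, 7.48, 7.08 and 7.27, under background. The list's median log2 RNA ratio at the limit of 1 was 0.01, 0.05 and 0.04 over 18 genes, beside -0.13, -0.04 and -0.10 over all genes.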

How the data were processed

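H3K27me3 ChIP-seq and RNA-seq of 8 libraries (4 genotypes, 1 each) were analysed. The labels' protocols say that reads were aligned to mm9 with Bowtie 0.12.7 and kept if they had at most 2 errors and did not align to more than 1 site. In the submitters' processing notes bcl2fastq, Cufflinks and Cuffdiff are listed with no role. Per the file headers, the deposited values are a coverage signal: area and peak of each start site window, and the mean and median exon peak of each gene. Per the file headers the RNA files also give another number, that of exons. From the values, coverage is per M reads in 25 bp bins with reads extended to 151 bases. How the columns were computed, and whether input was subtracted, is not given in the sources used here. Counts had been planned for if present; the files hold signal.

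The members, the lists, the clusters and the comparisons were chosen with earlier results of these data known, and the KRAB split, the windows at 2 times background and the promoter motif after the values were seen. Log2 ratios used pseudocounts of 1 (H3K27me3) and 0.1 (RNA) and a minimum of 1 in the higher library. With 1 library per group no test was run. Counting intervals of 95% (exact Clopper-Pearson) used read equivalents, and reflect sampling of reads alone: amplified copies of a molecule were not marked, so reads are not independent. None was made for RNA peaks. Unique starts of 50 bases were counted on both strands of the mm9 genome. Start sites, overlaps, C2H2 fingers and the KRAB-type box (at least 7 of 11 consensus positions) came from GENCODE M1, where 292 members were annotated. The counting of calls and of unique starts was tested on simulated data. Genes were named by rule: the 10 highest in WT for each assay, up to 5 higher and 5 lower per mutant and every 2-fold member, the role lists, the clusters of 5 or more, and members at the mark limit. Python 3.11.15, numpy 2.4.6, pandas 2.3.3, scipy 1.17.1 and matplotlib 3.10.9 were used. Alternatives covered scaling, pseudocounts, minimums, fold, mark level, the peak column, median exons, and the definition of clusters.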

Additional observations from a re-analysis of the deposited data

Results flagged for a closer look

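One result of a member stood out because 2 comparisons of the same loss pointed in opposite directions. Zfp488 RNA was higher in Ezh1 KO than in WT by 0.67 on the log2 scale (40.2 against 25.3), and lower in the double KO than in Ezh2 KO, with a log2 ratio of -0.62 (31.1 against 47.8). Both compare loss of Ezh1 with its presence, without and with loss of Ezh2. The difference between them was not tested, since each genotype has 1 library. The gene is read on 2 exons, 80.1% of whose 50-base starts are unique.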

How the results depend on the processing

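Over 26 alternatives to 30 results, 215 of 275 recomputed values stayed within a set range and 60 did not. The range was the 95% binomial interval of the median over members, or, for counts, 1.5 times. For clustered minus isolated differences it ran between the opposite limits of the 2 class intervals. That is wider than a 95% interval of the difference, so staying inside says less there. No paired analysis was possible because each group has 1 library.

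Scaling moved the H3K27me3 medians over members. In Ezh1 KO against WT the median was -0.079 with TMM, -0.085 with median of ratios and 0.057 with background windows set equal. For double KO against WT it was -0.054 and -0.055 under the first 2, and for Ezh2 KO against WT -0.10 under the third. Double KO against Ezh1 KO gave 0.028, 0.033 and -0.092, and against Ezh2 KO -0.062, -0.063 and 0.076. RNA medians were -0.035 and -0.027 (Ezh1 KO) and 0.011 and 7.5e-05 (double KO) under TMM and median of ratios, and 0.21 and 0.19 for double KO against Ezh2 KO. Under either, 1 member passed 2-fold in Ezh2 KO and 1 in double KO. TMM shifted all RNA values by 0.09, -0.06 and 0.11 in the 3 mutants.

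The highest bin in place of the area left 5 marked windows, 1 clustered and 4 isolated. It gave medians of 0.070 (Ezh1 KO against WT) and -0.10 (double KO against Ezh1 KO), with 0 windows past 2-fold in the double KO against WT and 3 against Ezh1 KO. A pseudocount of 10 left 0 windows past 2-fold in the double KO against WT and 0 against Ezh2 KO. The 2-fold call of Zfp608 in the double KO against WT was lost under both, and against Ezh1 KO 1 window still passed at the pseudocount of 10. Marked windows numbered 58 (17 clustered, 25 isolated) at 2 times background, 0, 0 and 0 at 8 times, and 6, 2 and 3 when background was the median of all windows. With clusters of at least 2 symbols 8 marked windows were clustered.

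At 1.5-fold the H3K27me3 counts were 2, 4 and 5 in the 3 mutants against WT, and 5 and 3 for double KO against Ezh1 KO and Ezh2 KO, and the RNA counts 5, 6, 1, 2 and 6. With an RNA minimum of 0.2, or none, 1 gene passed 2-fold in Ezh1 KO, 1 in Ezh2 KO, 1 in double KO against Ezh1 KO and 1 against Ezh2 KO, and without a minimum the Ezh2 KO median was -0.040.

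The clustered minus isolated difference in Ezh2 KO RNA was -0.24, and under the alternatives it ran from -0.25 to -0.13. It was -0.17 with only genes whose exons are at least 95% unique, an alternative chosen after seeing the data, as were the KRAB split and the promoter word. Depth limits genes under 0.1 in RNA, where 1 read is 0.0277 high in WT, and repeats limit windows with few unique starts.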
